A study of Monopterus albus with 3 samples.

Results

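In the gonads of the swamp eel *Monopterus albus*, 1435 assembled loci had a coding sequence that a single intron divides. They were taken from 63334 loci of the authors' gonad transcript models, where each Cufflinks gene identifier counts as 1 locus and the transcript with most coding bases stands for it. These bases are its coding sequence (CDS). A locus was included when this transcript had exactly 2 coding segments and at least 300 coding bases. The single-intron loci made up 2.27% of all loci, 7.82% of the 18355 loci of at least 300 coding bases, and 10.8% of the 13306 spliced loci of that length. They were set against the 11871 loci with 3 or more coding segments and the 5049 loci with 1 coding segment, under the same length limit.

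The spliceosome removes introns from the primary transcript, and an intron within a coding sequence has a phase that tells where it cuts the reading frame. A phase 0 intron lies between codons, a phase 1 intron follows the first base of a codon, and a phase 2 intron follows the second base. Phase matters in gene evolution, because an exon can be skipped, duplicated or exchanged without a shift of the frame only when the introns on its sides have the same phase. In vertebrates, phase 0 is the most common class, and the first intron of a gene is on average longer than the introns that follow.

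RNA came from 3 kinds of gonad of this sex-changing fish, namely the ovary of a female, the ovotestis of an intersex and the testis of a male, with 1 poly(A)-selected RNA-seq library for each kind and no replicates. The sources used here do not give the number and age of the fish behind a library or its number of reads. The models form 1 annotation for all the libraries, in which each transcript has 1 coverage value for the whole series, so the gonads could not be compared and their identity could not be checked against marker genes. Differences between sets of loci are therefore given without a test. The 95% intervals (Wilson for shares, order statistics for medians, normal for the difference of mean log2 coverage) cover the spread between loci only. Related loci are not independent of each other, so these intervals may be too narrow.

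The deposited models are ORF models, and their segment lengths and frames show that the segments were read as coding sequence without untranslated regions. Introns in untranslated regions are thus not seen, and a locus with a single coding intron may have more introns in its full transcript. The CDS was a whole multiple of 3 in 1432 of the 1435 single-intron loci. The phase computed from the segment lengths matched the annotation's own frame field in 1435 of 1435. This check allowed for a first segment that starts inside a codon, found in 2 of them. The phases reported here count coding bases from the start of the model and were not shifted at those 2 loci. Of the identifiers of single-intron loci, 0 matched the RefSeq table for *M. albus*, and the loci therefore have no gene names and are told apart by their 1-based position on the authors' scaffolds. The scaffold sequences were not used here, so splice sites are not printed.

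The single-intron loci were short. Their CDS had a median of 513 bp (95% interval 492 to 537), against 1236 bp (1218 to 1257) for loci with 3 or more segments and 435 bp (429 to 444) for loci with 1 segment. Loci with exactly 3 segments had a median of 512 bp, within the interval of the single-intron loci. A CDS under 400 bp was found at 466 single-intron loci (32.5%). From the first to the last coding base, a single-intron locus spanned 1325 bp in the median, against 7012 bp for loci with 3 or more segments.

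At the edge of the length rule, 6 loci had a CDS of exactly 300 bp. One of them lay on scaffold 65 from 2679938 to 2680630 on the plus strand, with segments of 96 and 204 bp, a 393-bp phase 0 intron and a coverage of 88.5. Another lay on scaffold 93 from 690470 to 691537 on the plus strand, with segments of 100 and 200 bp, a 768-bp phase 1 intron and a coverage of 23.1. On scaffold 138, segments of 263 and 37 bp were separated by a phase 2 intron of 13259 bp, and the coverage was 4.18. Just outside the rule, at a CDS of 297 bp, were loci on scaffold 50 (segments of 149 and 148 bp, intron of 955 bp, coverage 11.5), scaffold 90 (200 and 97 bp, intron of 80 bp, coverage 10.1) and scaffold 127 (67 and 230 bp, intron of 17592 bp, coverage 9.58). Short and long introns occurred on both sides of the limit. In all, 1716 loci with 2 coding segments fell below the limit.

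The intron lay more often in the early part of the reading frame than in the late part. Its relative place, the coding bases before it as a percentage of the CDS, had a median of 41.4% (95% interval 38.0 to 44.6). The first 25% of the CDS held the intron at 472 loci (32.9%, Wilson 95% interval 30.5 to 35.4), the next 25% at 361 (25.2%), the next at 318 (22.2%) and the last 25% at 284 (19.8%, 17.8 to 21.9). The intervals of the first and last 25% did not overlap. In steps of 10% of the CDS, the numbers were 204, 188, 163, 145, 133, 146, 121, 92, 100 and 143 from the start to the end. The decline thus ended before the last 10%, which held more introns than any of the 3 steps before it.

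**Figure D1:**
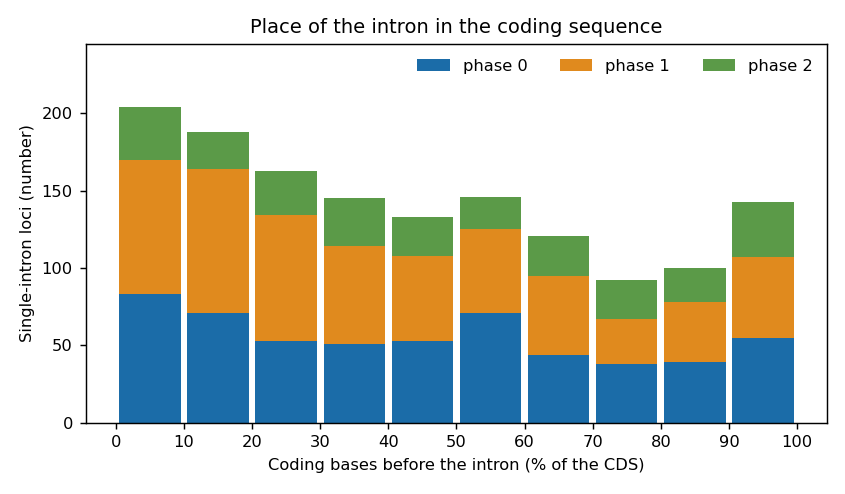
Number of single-intron loci (y axis) by the place of the intron in the CDS (x axis, coding bases before the intron in percent of the CDS, in steps of 10%), with colours for the intron phase. The bars are tallest in the first step (204 loci), lowest in the eighth (92) and higher again in the last (143).

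The median place lay nearer to the start in long reading frames. At a CDS of 300 to 399 bp (466 loci), the median place was 47.0% (95% interval 43.9 to 50.1), at 400 to 599 bp (367 loci) 42.2% (37.2 to 48.9), at 600 to 999 bp (289 loci) 39.5% (32.5 to 49.1), and at 1000 bp or more (313 loci) 32.0% (24.4 to 38.0). The intervals of the shortest and the longest class did not overlap. The latest introns did not move toward the start, with a 90th percentile of place of 87.7% in the shortest class and 91.6% in the longest. A short frame also limits how unequal the segments can be in bases, so these classes are not matched in that respect.

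The first coding segment had a median of 206 bp (95% interval 195 to 217) and the second a median of 276 bp (260 to 288). The first was the shorter of the pair at 830 loci (57.8%, Wilson 95% interval 55.3 to 60.4), and both were equal at 3 loci. The shorter segment of a locus had a median of 123 bp and the longer a median of 387 bp. First and second segment lengths had a Spearman rho of -0.40 over the 1435 loci, which is a description only, since the length rule removes loci with 2 short segments.

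**Figure D2:**
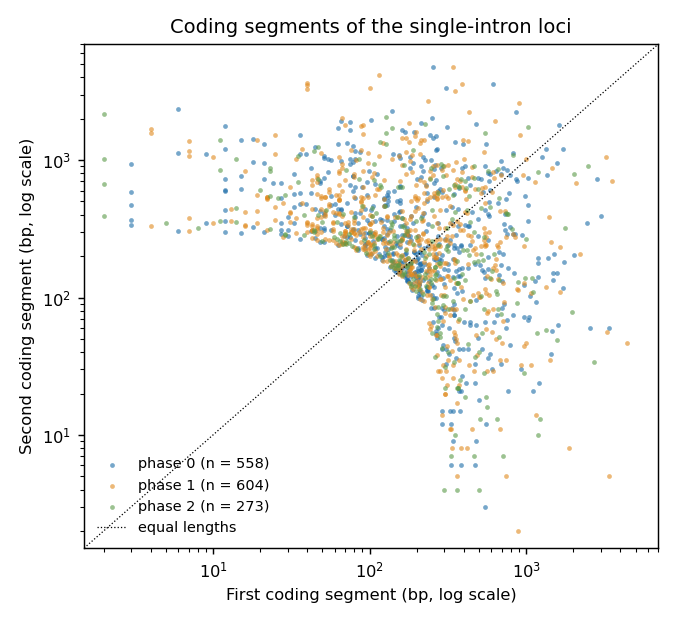
Length of the second coding segment (y axis, bp, log scale) against the first (x axis, bp, log scale) for the 1435 single-intron loci, coloured by intron phase, with a dotted line at equal lengths. The empty lower left corner is set by the minimum CDS of 300 bp, and more points lie above the line (830) than below it.

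Very short segments occurred at both ends. The 10th percentile of the first segment was 46 bp at single-intron loci, 39.3 bp at loci with exactly 3 segments and 24 bp at 3 or more. Loci with exactly 3 segments were thus closer to the single-intron loci in this respect. The first segment was under 30 bp at 87 single-intron loci (6.06%), against 12.9% of loci with 3 or more segments, and the last was under 30 bp at 70 (4.88%), against 11.0%. The intron nearest to the start of a CDS followed only 2 coding bases, on scaffold 49 from 176392 to 176576 within a CDS of 2184 bp, with a coverage of 6.72. An intron on scaffold 15, from 1620578 to 1620891 on the minus strand, likewise followed 2 coding bases, and its locus had a coverage of 86.3. On scaffold 227, a minus-strand locus from 11 to 3522 had 4 coding bases before its intron of 1820 bp and a coverage of 17.3. These introns split the first codon of the model or the codon after it, and each locus had 2 transcripts in the models.

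At the other end, an intron of 7288 bp on scaffold 99, from 3563953 to 3571240, left only 5 of 3399 coding bases after it, and the coverage of this locus was 36.5. On scaffold 1686, 2 coding bases followed the intron of a locus from 722 to 2803, and the coverage was 416. No model on that scaffold ended further on, and the length of the scaffold itself was not known here. On scaffold 150, 8 bases of a 1878-bp CDS followed the intron, with a coverage of 192. In all 3, the intron was of phase 1. Such short segments rest on few coding bases, and the reads that cross each junction were not among the values used.

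The phases of the single introns differed from those of introns in genes with more segments. Phase 1 was the largest class with 604 introns (42.1%, Wilson 95% interval 39.6 to 44.7), followed by phase 0 with 558 (38.9%, 36.4 to 41.4) and phase 2 with 273 (19.0%, 17.1 to 21.1). The intervals of phases 1 and 0 overlapped, so their order is not settled by these counts. It turned when the minimum CDS was lowered to 150 bp, where 37.6% were of phase 1 and 40.1% of phase 0, with overlapping intervals. Among the 113263 introns of loci with 3 or more segments, 30.7% were of phase 1, 47.4% of phase 0 and 21.9% of phase 2, outside the intervals of the single introns for each of the 3 phases.

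First introns and short genes were closer to the single-intron loci. First introns of loci with 3 or more segments had 36.0% phase 1 (Wilson 95% interval 35.1 to 36.9) and 43.3% phase 0, while inner introns had 29.7% phase 1 and 48.2% phase 0, and last introns had 32.9% phase 1 and 45.3% phase 0. Loci with exactly 3 segments came closest to the single-intron loci. Their first introns had 40.9% phase 1 (38.2 to 43.7), 38.7% phase 0 and 20.4% phase 2, and each of these intervals overlapped that of the single introns. Their last introns had 37.8% phase 1 (35.2 to 40.5) and 44.4% phase 0.

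**Figure D3:**
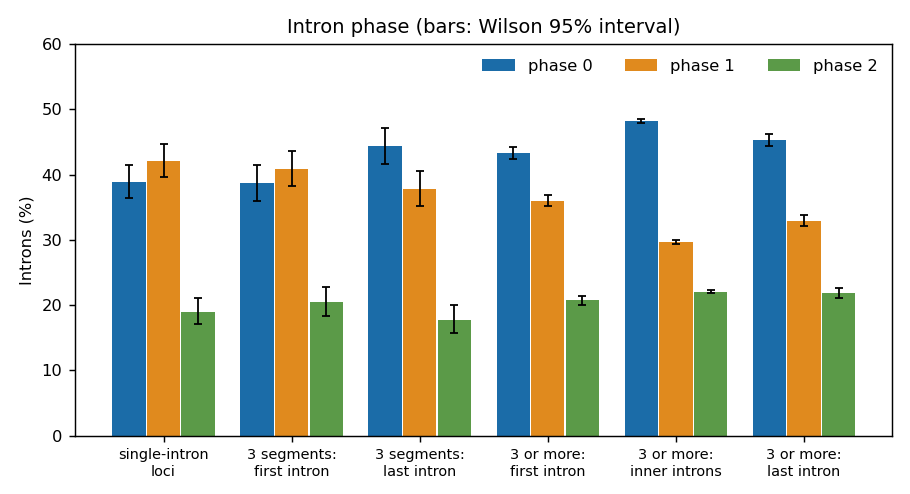
Share of introns (y axis, percent) of phase 0, 1 and 2 at single-intron loci, at loci with exactly 3 segments and at loci with 3 or more segments (x axis), with Wilson 95% intervals as error bars. Phase 1 is the tallest bar at single-intron loci (42.1%) and among first introns of loci with 3 segments (40.9%), and phase 0 is the tallest in the other sets, with 48.2% among inner introns.

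The share of phase 1 among single introns was highest after 50 to 99 coding bases, a class that stands out among several looked at. Its interval overlapped those of the other classes under 500 bases and lay above that of 500 or more (29.9 to 41.9). Loci with exactly 3 segments, the closest in phase, were not split by this distance. After 50 to 99 coding bases, 103 of 200 single introns were of phase 1 (51.5%, Wilson 95% interval 44.6 to 58.3), 74 of phase 0 and 23 of phase 2. First introns of loci with 3 or more segments at the same distance had 36.7% phase 1 (35.1 to 38.4), below that interval. After 1 to 49 coding bases, 43.9% of 164 single introns were of phase 1 (36.5 to 51.6), against 34.2% of first introns (32.5 to 36.0), and after 100 to 199 bases 41.3% of 334 single introns (36.2 to 46.7), against 35.6% (34.0 to 37.2). The intervals overlapped after 100 to 199 bases and did not overlap after 1 to 49 or 50 to 99 bases. The shares came closer further in. After 200 to 499 coding bases, they were 41.3% of 496 single introns (37.1 to 45.7) and 39.3% of first introns (37.0 to 41.6), and after at least 500 bases 35.7% of 241 single introns and 33.5% of first introns, with overlapping intervals in both classes.

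By relative place, phase 1 made up 45.9% of the single introns in the first 20% of the CDS (41.0 to 50.9). It made up 46.8% in the next 20% (41.3 to 52.3), against 37.4% in the last 20% (31.6 to 43.7), whose interval overlapped both. Phase 2 went the other way, with 14.8% in the first 20% of the CDS (Wilson 95% interval 11.6 to 18.7) and 23.9% in the last (18.9 to 29.6). Phase 1 introns accordingly had a median place of 35.9% (32.1 to 40.7), earlier than phase 0 introns at 44.7% (39.2 to 49.2) and phase 2 introns at 46.9% (41.6 to 54.0). The intervals of phases 1 and 0 overlapped, and those of phases 1 and 2 did not. Intron length differed little with phase, with medians of 506 bp for phase 0, 584 bp for phase 1 and 605 bp for phase 2 and overlapping intervals. Coverage medians were 15.1, 15.7 and 15.3 for phases 0, 1 and 2.

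The length of the single intron ranged over nearly 4 orders of magnitude, with a lowest value of 54 bp, a median of 554 bp (95% interval 503 to 627), an upper quartile of 1598 bp and a highest value of 479460 bp. First introns of loci with 3 or more segments were longer, with a median of 668 bp (649 to 693), and inner introns shorter, with a median of 328 bp (324 to 333). First introns of loci with exactly 3 segments had a median of 556 bp (488 to 601), within the interval of the single introns.

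**Figure D4:**
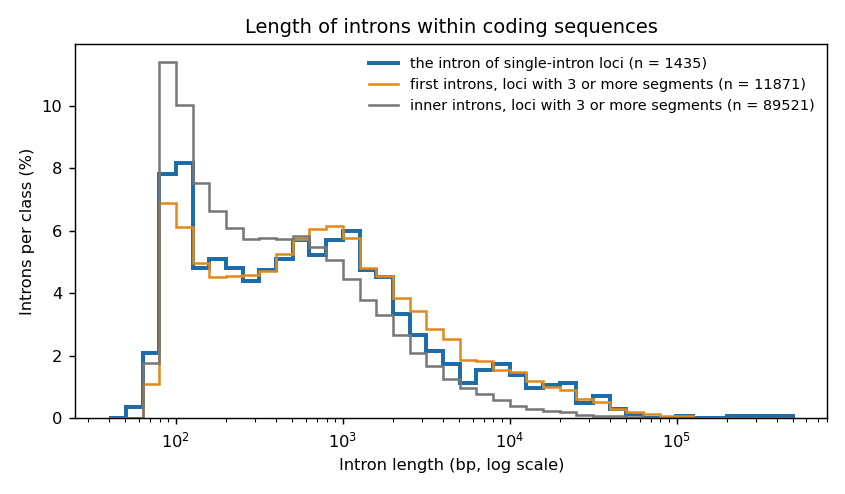
Share of introns per length class (y axis, percent) against intron length (x axis, bp, log scale) for the single introns (n = 1435), first introns (n = 11871) and inner introns (n = 89521) of loci with 3 or more segments. All 3 curves rise steeply below 100 bp, and the single introns follow the first introns in a second, broad rise around 1000 bp that the inner introns lack.

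Short introns gathered close to 100 bp. In classes of 10 bp, the fullest class of single introns was 90 to 99 bp, with 65 introns, and the fullest class of all introns of loci with 3 or more segments was the same. An intron under 100 bp was found at 140 single-intron loci (9.76%, Wilson 95% interval 8.33 to 11.4), against 7.70% of first introns (7.23 to 8.19) and 12.7% of inner introns (12.5 to 12.9). At the other end, 156 single introns measured at least 5000 bp and 7 of them at least 50000 bp. Introns of 5000 to 49999 bp made up 10.4% of the single introns (8.91 to 12.1), 11.2% of first introns and 3.71% of inner introns.

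Introns under 70 bp were found at 11 single-intron loci (0.767%, Wilson 95% interval 0.429 to 1.37), against 92 of 113263 introns of loci with 3 or more segments (0.0812%, 0.0662 to 0.0996). The shortest, of 54 bp, lay on scaffold 92 from 3743461 to 3743514 on the minus strand, in phase 0 between segments of 177 and 168 bp, with a coverage of 14.0. The next, of 56 bp, lay on scaffold 102 from 535909 to 535964 between segments of 379 and 308 bp, with a coverage of 1.74. An intron of 57 bp on scaffold 86, from 504008 to 504064, divided a CDS of 828 bp with a coverage of 236. The shortest introns were thus found at poorly and at well covered loci.

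The longest single intron, on scaffold 96 from 1103261 to 1582720, separated segments of 487 and 38 bp and held 39 other loci, and its coverage was 71.2. An intron of 320353 bp on scaffold 65 held 36 loci between segments of 348 and 75 bp, with a coverage of 3.89. On scaffold 16, an intron of 311677 bp with 14 loci inside it separated segments of 45 and 303 bp, and the coverage of this locus reached 857. Over all single-intron loci, 122 held at least 1 other locus in the intron, 297 in all, of which 150 lay on the strand of the host. A spliced locus lay inside the intron at 13 of them, so those introns span a second spliced transcript model. Of the 156 introns of at least 5000 bp, 61 held a locus. No such counts are given for introns of other loci, so nesting is not read as a trait of single-intron loci.

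Intron length was a whole multiple of 3 at 513 single-intron loci (35.7%, Wilson 95% interval 33.3 to 38.3), against 33.4% of first introns (32.6 to 34.3), and the intervals overlapped. It was a multiple of 3 at 56 of the 140 introns under 100 bp (Wilson 95% interval 32.3% to 48.3%). The share was 35.0% at 100 to 199 bp (29.5 to 40.9) and 33.5% at 1000 to 4999 bp (28.8 to 38.5). At 5000 bp or more it was 45 of 156 (28.8%, 22.3 to 36.4). At 200 to 999 bp it was 199 of 515 (38.6%, 34.5 to 42.9), above the interval of first introns of all lengths. That class stands out among several looked at. An intron whose length is a multiple of 3 keeps the frame downstream of it when it stays in the transcript.

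Longer introns went with longer reading frames. The median CDS was 419 bp at loci with an intron under 100 bp (95% interval 384 to 477), 456 bp at 100 to 199 bp, 528 bp at 200 to 999 bp, 609 bp at 1000 to 4999 bp (552 to 681) and 587 bp at 5000 bp or more (492 to 648). The rank correlation of intron length with CDS was weak (Spearman rho 0.16 over 1435 loci, as a description). Both lengths were also shorter on small scaffolds, as given below, and these classes were not matched for scaffold size.

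The longest reading frames with a single intron mostly had a small segment at one end. A CDS of 5136 bp on scaffold 225, from 447201 to 453572 on the plus strand, had segments of 343 and 4793 bp around a phase 1 intron of 1236 bp, and its coverage was 8.05. A CDS of 5013 bp on scaffold 53, from 1530909 to 1536838, had segments of 255 and 4758 bp around a phase 0 intron of 917 bp, with a coverage of 49.1. On scaffold 90, the long segment came first, with 4414 bp before a phase 1 intron of 122 bp and 47 bp after it, and the coverage was 241. On scaffold 84, segments of 3235 and 1055 bp flanked an intron of 2242 bp, with a coverage of 4.12. On scaffold 93, a CDS of 4278 bp from 215889 to 222131 had only 115 bp before its phase 1 intron of 1965 bp, and its coverage was 352. Of these 5 frames, 4 were cut in phase 1. Over all 313 single-intron loci with a CDS of 1000 bp or more, the order was the other way, with 118 introns of phase 1 (37.7%, Wilson 95% interval 32.5 to 43.2) and 137 of phase 0 (43.8%, 38.4 to 49.3), and these intervals overlapped.

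A second coding segment of at least 3000 bp was present at 11 single-intron loci, a group picked after its values were seen. In 8 of them the intron was of phase 1, against 42.1% of all single introns and 37.7% of those in a CDS of 1000 bp or more, and nothing is read from this count. A first segment of exactly 40 bp occurred in 3 of these, on different scaffolds, each before a long intron. Its phase 1 follows from the 40 bp before it. They lay on scaffold 59 from 2292091 to 2307534 (intron of 12087 bp, second segment of 3317 bp), on scaffold 33 from 1383967 to 1414614 (27072 bp, 3536 bp) and on scaffold 73 from 1422935 to 1461419 (34795 bp, 3650 bp). Their coverages were 21.9, 88.6 and 6.69. On scaffold 93, the locus with the CDS of 4278 bp followed another on the same strand, from 208917 to 213168, with segments of 388 and 3599 bp, a phase 1 intron of 265 bp and a coverage of 269.

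Transcripts of single-intron loci were covered by fewer reads than those of loci with more segments. Coverage, the mean read depth that Cufflinks gives for a transcript without scaling to library size, had a median of 15.3 (95% interval 13.3 to 17.4) at single-intron loci, against 95.7 (92.0 to 99.3) at loci with 3 or more segments and 11.6 (11.1 to 12.2) at loci with 1 segment. On the log2(coverage + 2) scale, single-intron loci averaged 4.79 and loci with 3 or more segments 6.31, a difference of -1.52 (95% interval -1.64 to -1.40). A coverage of at least 100 was reached by 21.4% of single-intron loci, 49.0% of loci with 3 or more segments and 10.8% of loci with 1 segment. The quartiles of single-intron loci were 6.34 and 74.5.

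The median coverage was higher in each class of segment number up to 20 segments. It was 11.6 at 1 segment, 15.3 at 2, 21.6 at 3, 31.4 at 4, 58.9 at 5, 114 at 6 to 10 and 137 at 11 to 20, and then 104 at 21 or more. Intervals of neighbouring classes did not overlap from 1 to 3 segments, so the median of single-intron loci stood between those at 1 and at 3 coding segments.

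**Figure D5:**
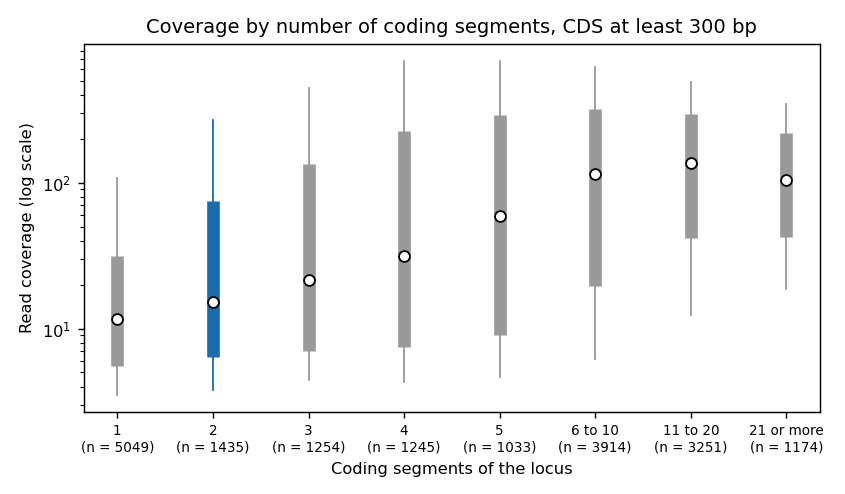
Read coverage (y axis, log scale) of loci above the length limit by number of coding segments (x axis, with the number of loci). Circles are medians, thick bars the quartiles and thin lines the 10th to 90th percentile. Single-intron loci (blue) have a median of 15.3, between 11.6 at 1 segment and 21.6 at 3.

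The lower coverage was present within classes of coding length, of which the last has no upper limit and is not closely matched. Loci with exactly 3 segments, alike in median CDS (512 against 513 bp), had a median coverage of 21.6, nearer to the 15.3 of single-intron loci. At a CDS of 300 to 399 bp, single-intron loci had a median coverage of 18.1 (95% interval 13.9 to 22.6), against 42.3 (31.7 to 61.0) at 3 or more segments and 12.0 (11.5 to 12.9) at 1 segment. At 400 to 599 bp these medians were 11.0 (9.62 to 14.0), 39.8 (29.5 to 50.7) and 10.6 (9.58 to 11.5). At 600 to 999 bp they were 12.3 (9.07 to 16.4), 85.5 (74.0 to 94.8) and 9.55 (8.02 to 11.1). At 1000 bp or more they were 21.7 (17.0 to 33.8), 109 (103 to 115) and 17.4 (14.5 to 19.8). In each of these classes of length the interval of single-intron loci lay below that of loci with 3 or more segments. At 300 to 399 bp it also lay above that of loci with 1 segment, and in the longer classes the intervals overlapped. Among single-intron loci, CDS and coverage had a Spearman rho of -0.01 over 1435 loci.

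The 5 best covered single-intron loci had CDSs of 330 to 960 bp, on both sides of the median of 513 bp. The highest coverage, 12670, belonged to a CDS of 330 bp on scaffold 7466 from 3 to 486, with segments of 145 and 185 bp around a phase 1 intron of 154 bp. The next was 5075 on scaffold 47 from 351836 to 353422, where 928 of 960 coding bases lay before the phase 1 intron. Coverages of 4268 on scaffold 141 (986393 to 987922, CDS of 654 bp), 3978 on scaffold 5618 (250 to 673, CDS of 336 bp) and 3930 on scaffold 346 (242762 to 243679, CDS of 690 bp) followed, all with phase 0 introns. On the scaffolds of the first and the fourth, no model ended beyond 1 kb, and the lengths of these scaffolds were not known here.

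The lowest coverage, 1.39, was found on scaffold 40 from 5999923 to 6000493, at a CDS of 363 bp with a phase 2 intron of 208 bp. A locus on scaffold 8 from 1692113 to 1693560 had 1.44, and one on scaffold 28 from 1865925 to 1867445 had 1.53. The margin of the upper confidence bound above FPKM narrowed with coverage. The authors' upper bound lay above the FPKM value by a median of 49.1% of it in the least covered 25% (coverage up to 6.33). In the best covered 25% (coverage from 74.9), this margin was 5.73%. Lower bounds were not summarized, and some well covered loci had a lower bound of 0. One of these, picked after its values were seen, lay on scaffold 40 from 4616396 to 4616967, with a coverage of 3283.

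Intron length varied weakly with coverage among the single-intron loci (Spearman rho -0.10 over 1435 loci, as a description). The place of the intron hardly varied with it (rho 0.03). The median intron was 804 bp (95% interval 634 to 944) in the least covered 25%, then 559 bp, 505.5 bp and 459 bp (369 to 534) in the best covered 25%. The intervals of the least and the best covered 25% did not overlap. Single-intron loci on small scaffolds had shorter introns and higher coverage, as given below, and these groups were not matched for scaffold size. Introns of at least 5000 bp made up 13.4% of the least covered 25% (Wilson 95% interval 10.2 to 17.3) and 6.69% of the best covered (4.53 to 9.75). The intron lay in the last 10% of the CDS at 52 of 359 loci in the least covered 25% (14.5%, 11.2 to 18.5), at 17 of 359 in the next (4.74%, 2.98 to 7.45), at 35 of 358 in the third and at 39 of 359 in the best covered (10.9%). That low share in the second group stands out among several looked at. In the first 10% of the CDS, the shares were 17.0%, 12.8%, 14.0% and 13.1% in the same order, with overlapping intervals. Phase 1 had 39.8%, 43.5%, 41.3% and 43.7% from the least to the best covered group, with overlapping intervals.

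Single-intron loci were spread over 584 scaffolds, of which 329 held only 1. They lay on the plus strand at 752 loci and on the minus strand at 683 (52.4% plus, Wilson 95% interval 49.8 to 55.0). Scaffold 2 held the most, 26 of its 216 loci of at least 300 coding bases (12.0%), followed by scaffold 7 with 21 of 212 and scaffold 40 with 21 of 171. On scaffold 2, 14 of 26 introns were of phase 0 (53.8%, 35.5 to 71.2), an interval that holds the 38.9% of all single introns. On scaffold 7, 11 of 21 were of phase 1, against 42.1% of all single introns. On scaffold 40, 12 of 21 were of phase 2 (57.1%, 36.5 to 75.5), against 19.0% of all single introns, but this scaffold and phase stand out among several looked at. The 12 had coverages between 1.39 and 212 and first segments of 68 to 674 bp.

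Small scaffolds carried a larger share of single-intron loci than of longer genes. Scaffold size here means the end of the last model on a scaffold, not the length of its sequence. A last annotated base below 50 kb was found for 196 single-intron loci (13.7%, Wilson 95% interval 12.0 to 15.5), against 2.27% of loci with 3 or more segments (2.01 to 2.55) and 12.4% of loci with 1 segment. On these scaffolds the single introns were short, with a median of 154 bp (95% interval 127 to 173), against 669 bp (582 to 787) on scaffolds of at least 1 Mb, and the median CDS was 374 bp, against 591 bp. The end of the last model limits how long an intron or a CDS can be, so the grouping itself favours short ones on small scaffolds. Coverage of the single-intron loci was higher on the small scaffolds, with a median of 32.0 (23.3 to 43.3), against 12.5 (11.0 to 15.1). Whether some of these loci are parts of longer genes was not tested.

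Neighbours on the same strand were common close by. The nearest other spliced locus began or ended within 5 kb, without overlap, at 483 single-intron loci, and it lay on the same strand at 346 of them (71.6%, Wilson 95% interval 67.5 to 75.5), against 63.8% (62.5 to 65.1) for loci with 3 or more segments. At 5 to 50 kb the same-strand share was 54.8% of 600 single-intron loci (50.8 to 58.8), against 58.6%. Coverage of a single-intron locus and of its nearest neighbour within 5 kb differed by no more than 2 times at 165 of 346 same-strand pairs (47.7%, 42.5 to 52.9) and at 39 of 137 opposite-strand pairs (28.5%, 21.6 to 36.5). For loci with 3 or more segments these shares were 44.6% and 33.4%. The near same-strand neighbour lay upstream at 165 of the 346 and downstream at the others. Whether such neighbours are pieces of 1 gene was not tested.

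Close pairs of single-intron loci on the same strand shared their phase more often than distant pairs on either strand. Among 59 pairs of consecutive single-intron loci under 20 kb apart on the same strand, on 46 scaffolds, 35 had introns of the same phase (59.3%, Wilson 95% interval 46.6 to 70.9), with 20 pairs of phase 1, 13 of phase 0 and 2 of phase 2. Among 759 consecutive pairs at least 20 kb apart, on either strand, 37.9% had the same phase (34.6 to 41.4). These sets differ in strand as well as in distance, so the share of either cannot be told apart. The 59 close pairs drew on 110 loci, so some loci were in more than 1 pair and the interval may be too narrow. In the pair on scaffold 399, a locus lay inside the intron of the other. The first segments agreed within 10% in 8 of the 59 close pairs, and 7 of these 8 had the same phase. Phase was computed from the length of the first segment, so pairs with equal first segments, as on scaffolds 1 and 173, had to share it. Nothing is therefore read from this count.

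Some of these close pairs, picked by their first segments after the values were seen, shared the length of the first segment but mostly not that of the second. Other pairs were alike in the second segment and not in the first, and these were not counted. In one of them, on scaffold 7 (5309712 to 5312763 and 5313751 to 5315479), the second segments both measured 536 bp and the first 52 and 79 bp. On scaffold 173, loci from 17061 to 18176 and from 25903 to 26850 on the minus strand both had a first segment of 409 bp before a phase 1 intron, of 99 bp and 117 bp, while the second segments measured 608 and 422 bp, and their coverages were 174 and 754. On scaffold 1, loci from 3604041 to 3605495 and from 3607540 to 3609186 both had 156 bp before a phase 0 intron, of 783 and 852 bp, with second segments of 516 and 639 bp and coverages of 6.60 and 3.43. On scaffold 260, first segments of 181 and 187 bp and second segments of 977 and 1085 bp flanked phase 1 introns of 2010 and 2440 bp, and coverage was high in both, at 960 and 614. On scaffold 805, both segments agreed within 10%, at 43 and 46 bp and at 305 and 320 bp, around phase 1 introns of 101 and 111 bp. Both segments were alike to this degree in that pair alone among the 59.

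Pairs of equal layout also occurred on different scaffolds. Exactly equal lengths of both segments were shared by 41 single-intron loci in 20 sets, 1 of 3 loci and 19 of 2. The set of 3 had segments of 180 and 174 bp in phase 0, on scaffolds 39, 42 and 87, but its introns measured 1261, 101 and 1355 bp and its coverages were 9.85, 206 and 10.5. In 3 sets the intron was equal too. Segments of 120 and 267 bp around an 80-bp intron were found on scaffold 707 from 7496 to 7962 and on scaffold 876 from 895 to 1361, with coverages of 51.3 and 51.2. Segments of 78 and 762 bp around a 473-bp intron lay on scaffold 416 from 45616 to 46928 and on scaffold 66 from 166011 to 167323, with coverages of 70.1 and 72.6. Segments of 368 and 127 bp around a 169-bp intron lay on scaffolds 386 and 764, with coverages of 16.7 and 45.6. In all the other sets the introns differed in length, as in the set of 3. How many sets of equal segments would arise among unrelated loci was not computed, and whether the members of a set are related was not tested.

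Most single-intron loci had 1 transcript. More than 1 was present at 349 loci (24.3%, Wilson 95% interval 22.2 to 26.6), against 51.9% of loci with 3 or more segments and 5.94% of loci with 1 segment. Another transcript contained the very same intron at 93 of the 349. At 38 loci another transcript shared only the 5′ boundary of the intron and at 38 only the 3′ boundary, and at 180 loci no other transcript shared a boundary. At 131 loci every other transcript had a single coding segment, and at 42 another transcript had 3 or more segments with a shorter CDS than the chosen one, or one of equal length. A coding segment that runs through the whole intron was found in another transcript at 2 loci. The numbers of transcripts are those of the ORF models, so differences in untranslated exons are not seen.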

How the data were processed

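RNA from 1 ovary, 1 ovotestis and 1 testis library was measured. Per the labels, the authors mapped the reads with TopHat 1.3.3 and Bowtie 0.12.7 and assembled transcripts with Cufflinks 1.1.0 (the study's methods name a later version). Per the study's methods, ORFs of the transcripts were checked with a hidden Markov model. The deposited annotation gives coding segments, a frame, an FPKM value with confidence bounds and a coverage per transcript for the series as a whole, and whether reads were pooled is not given in the sources used here. Per locus, the transcript with the longest CDS was taken (ties: larger span, then identifier), and loci with 2 segments and at least 300 bp were kept. Place, phase and length of the intron were computed with Python 3.11.15, numpy 2.4.6, pandas 2.3.3 and scipy 1.17.1 on code tested on simulated models. Depth is known only as coverage. FPKM was not used as a level, because its ratio to coverage differs between groups of identifiers. No test was made. A set of 13 alternative settings was fixed and 1 was added. The members and the settings were chosen with earlier results of these data known. Loci named by position were those with the 5 longest CDSs, the 3 longest and 3 shortest introns, the 3 introns nearest each end, the 5 highest and 3 lowest coverages, 3 loci on each side of the length limit, the scaffolds with most members and the largest sets of equal segments; exceptions are stated.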

Additional observations from a re-analysis of the deposited data

How the results depend on the processing

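Over 14 alternative settings and 10 results, 76 of 104 alternative values stayed within the 95% interval or the 1.5-fold margin of the value reported, and 28 moved. Only the log2 coverage difference could change sign, and it did so in 0 settings. A turn in the order of the phases was not counted as such a change. With a minimum CDS of 150 bp there were 2650 single-intron loci, with a median intron of 388 bp, 37.6% phase 1, 40.1% phase 0 (now the largest class), 22.3% phase 2, 28.6% of introns in the first 25% of the CDS, a median coverage of 26.7 and a log2 coverage difference of -0.89. With a minimum of 600 bp there were 602, with a median intron of 803 bp, a median place of 35.0%, 40.7% in the first 25% and 22.6% in the last. On scaffolds of at least 1 Mb there were 893, with a median intron of 669 bp, a median coverage of 12.5 and a difference of -1.64. At a coverage of at least 10 there were 858, with a median intron of 477.5 bp, a median coverage of 51.1 and a difference of -0.96. With single-transcript loci the median intron was 486 bp, the median coverage 12.5 and the difference -1.69. When the coverages of all transcripts at a locus were added up, the median was 19.1 and the difference -1.84, and FPKM in place of coverage had a median of 122 in its own unit. With at least 30 coding bases on each side of the intron, a setting chosen after seeing the data, 30.1% of introns lay in the first 25% and 16.7% in the last, since that setting removes introns near the ends. With FPKM the log2 difference was -1.45, within the interval of the value reported. A lower limit on coverage, and adding up coverages, can only raise the median coverage. The causes of the other changes were not tested.

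No paired analysis was possible because each gonad had 1 library and the values are not given per library, which also left no library to omit. Depth limits the values of poorly covered loci most.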
